A study of Mus musculus with 2 samples.

Results

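Decorin, lumican, dermatopontin, osteonectin and 6 other products of skin fibroblasts were measured in RNA from cells that had been sorted from mouse skin as GFP-positive keratinocytes. The 10 genes were picked by name, from a list drawn up with earlier results of these data known, and all 10 were found among the 50559 genes listed in both count files. They encode the proteoglycans Dcn and Lum, the matrix proteins Mfap5, Dpt, Fbln1 and Sparc, the cell-surface proteins Pdgfra, Dpp4 and Lepr, and the transcription factor Twist2. There is 1 group, of 2 replicate libraries, and no control group. Both come from dorsal skin taken at postnatal day 21 from mice with the genotype Polr2b fl/fl GFP and K14-Cre, when hair follicles rest in telogen. Polr2b is the gene of the second largest RNA polymerase II subunit. Cre recombinase is driven by the keratin 14 promoter, which is active in basal keratinocytes of epidermis and follicle. The tissue was digested with collagenase and trypsin, dead cells were stained with propidium iodide, and live GFP-positive cells were sorted. The stated purpose of the libraries was to set steady-state RNA beside nascent RNA, which was not analysed here.

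Dermal fibroblasts make the collagen and elastic scaffold of the skin. Small leucine-rich proteoglycans such as decorin and lumican bind collagen fibrils and govern their assembly, and fibulins and microfibril-associated proteins belong to the elastic fibre network. Fibroblasts of the dermis carry the PDGF receptor alpha, and Twist2, also named Dermo1, is a basic helix-loop-helix factor of the dermal lineage. None of the 10 genes is restricted to fibroblasts. Sparc, for example, is also made by endothelial and mural cells.

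The 300 bases around annotated starts, from 250 bases before to 50 after, were available from RefSeq on GRCm38.p6 for 7 of the 10 genes, in 9 windows, since Fbln1 and Lepr have 2 each. The counts themselves were made on mm39, so these positions do not belong to the count files. Shown are Sparc, the most abundant of the genes, Dpt, whose window held the most E-boxes, and Dpp4, which had the smallest ratio between the libraries. Each is written 5′ to 3′ on the strand of the gene, with matches to CANNTG, the E-box bound by basic helix-loop-helix factors including the Twist proteins, in capitals.
Sparc, chr11:55420031-55420330, minus strand: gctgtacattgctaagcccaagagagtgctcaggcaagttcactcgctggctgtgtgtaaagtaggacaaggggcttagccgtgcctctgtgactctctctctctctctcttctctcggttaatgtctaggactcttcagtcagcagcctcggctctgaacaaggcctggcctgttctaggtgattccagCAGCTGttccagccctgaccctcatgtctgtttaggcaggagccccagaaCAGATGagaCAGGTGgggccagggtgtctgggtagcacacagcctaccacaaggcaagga
Dpt, chr1:164796413-164796712, plus strand: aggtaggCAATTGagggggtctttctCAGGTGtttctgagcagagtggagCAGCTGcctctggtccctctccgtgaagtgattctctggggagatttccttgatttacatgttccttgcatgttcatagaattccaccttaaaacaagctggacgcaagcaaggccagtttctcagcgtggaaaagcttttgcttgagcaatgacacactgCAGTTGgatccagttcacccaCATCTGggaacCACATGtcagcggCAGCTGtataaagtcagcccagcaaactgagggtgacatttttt
Dpp4, chr2:62412182-62412481, minus strand: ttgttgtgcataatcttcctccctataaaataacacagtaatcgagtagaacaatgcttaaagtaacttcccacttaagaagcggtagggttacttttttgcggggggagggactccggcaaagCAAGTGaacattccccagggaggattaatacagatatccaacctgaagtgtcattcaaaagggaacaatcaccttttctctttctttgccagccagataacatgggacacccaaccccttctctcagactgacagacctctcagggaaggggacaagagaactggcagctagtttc

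CANNTG reads the same on both strands and was present in 7 of the 9 windows, beside 72.3% of all 32851 windows of this length. The Dpt window held 7 matches, and 0.177% of all windows held as many. Sparc held 3, Pdgfra 2, Dpp4 1, and the Twist2 window none. A further 4 motifs were searched on both strands. TATAAA stood in 2 of the 9 windows (Dpt and Dpp4), against 13.6% of all windows, CCAAT in 2 against 37.4%, GGGCGG in 3 against 35.7% and TGANTCA in 0 against 7.81%. No match to these overlapped an E-box, and the TATAAA of Dpt directly followed one. Counted from the annotated start as base 1, TATAAA began at -227 in the Dpp4 window and at 13 in the Dpt window. The GC content of the 9 windows lay between 45.3% and 64.7%, with a median of 52.7% over all windows. A match is a description of these letters, not a site of binding.

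The labelled keratinocytes were represented by their markers, and markers of other skin cells stood beside them. Replicate 1 held 36692204 counts and replicate 2 held 33489967. The 6 basal keratinocyte markers summed to 9797 CPM (counts scaled to a common library total) in replicate 1 and 14044 CPM in replicate 2, and the 9 macrophage markers to 8332 and 9185 CPM. Sums were lower for 7 mural markers at 420 and 313 CPM, 6 Schwann cell markers at 199 and 236 CPM and 6 adipocyte markers at 156 and 114 CPM. They were lower still for 6 melanocyte markers at 124 and 92.0 CPM and 7 endothelial markers at 79.0 and 53.8 CPM. Several of these sums rest mostly on 1 gene. Erbb3 had 130 and 162 CPM of the Schwann cell sum, Lpl 117 and 93.7 CPM of the adipocyte sum. Mitf had 95.9 and 77.3 CPM of the melanocyte sum. In the mural sum, Cspg4 had 166 and 109 CPM and Notch3 99.6 and 131 CPM. The 6 T cell markers summed to 36.4 and 34.9 CPM, of which Cd4 alone had 35.2 and 33.4 CPM. Trac, Cd3d and Cd3g had between 0 and 9 counts per library, Cd3e had 29 and 32, and Cd8a had 14 and 12. The sum of the 10 fibroblast genes was 2259 and 1209 CPM in replicates 1 and 2. For 8 genes of fibrillar and associated collagens it was 14187 and 7002 CPM, above the basal keratinocyte sum in replicate 1 and below it in replicate 2. The libraries also differed in sex-linked RNA, since Xist had 3068 and 0.328 CPM in replicates 1 and 2 and Y-linked Uty had 0 and 71.5 CPM. Replicate 1 thus held no Uty RNA and replicate 2 almost no Xist RNA, so the libraries do not share an animal, and sex cannot be told apart from replicate in any ratio below. The labels name no animals, and p-values below concern these 2 samples only. Those of the exact binomial test cover counting error and not the spread between samples.

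All 10 genes were detected at 1 CPM or more in both libraries, as were 15833 of the 23690 genes with 10 or more counts in total. Of the 10, 8 reached 10 CPM in both, beside 40.2% of those 23690 genes. The exceptions were Twist2 and Lepr. Together the 10 genes held 0.226% of all counts in replicate 1 (exact 95% interval 0.224% to 0.227%) and 0.121% in replicate 2 (0.120% to 0.122%), a mean of 0.173% ± 0.0743 (SD, n = 2). Intervals here and on ratios below take in counting error alone and leave out the spread between libraries. Reads that carry no molecular identifiers do not count molecules independently, so the intervals may be too narrow even for that error. In bulk RNA, fewer cells of a type and less RNA per cell cannot be told apart. The counts also do not show which cells of the sorted fraction made these RNAs.

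Levels between genes are compared per length, as TPM, counts scaled by the deposited gene length and then to a common total. By this scale the genes ran from Sparc at 902 ± 409 TPM to Lepr at 3.72 ± 2.85 TPM (SD, n = 2, as for each level below), and every gene was higher in replicate 1. The order by TPM was Sparc, Dcn, Dpt, Lum, Fbln1, Mfap5, Pdgfra, Twist2, Dpp4 and Lepr, and it was the same in both libraries. Lum and Fbln1 were the 1 pair of neighbours whose difference, 0.10 ± 0.10 on the log2 scale, did not exceed its spread. The other steps ranged from 0.25 ± 0.10 (Twist2 over Dpp4) to 2.26 ± 0.07 (Dcn over Dpt). By unscaled CPM the long transcripts ranked higher, and Pdgfra at 80.1 ± 31.0 CPM stood above Dpt at 68.2 ± 23.1 CPM.

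**Figure D1:**
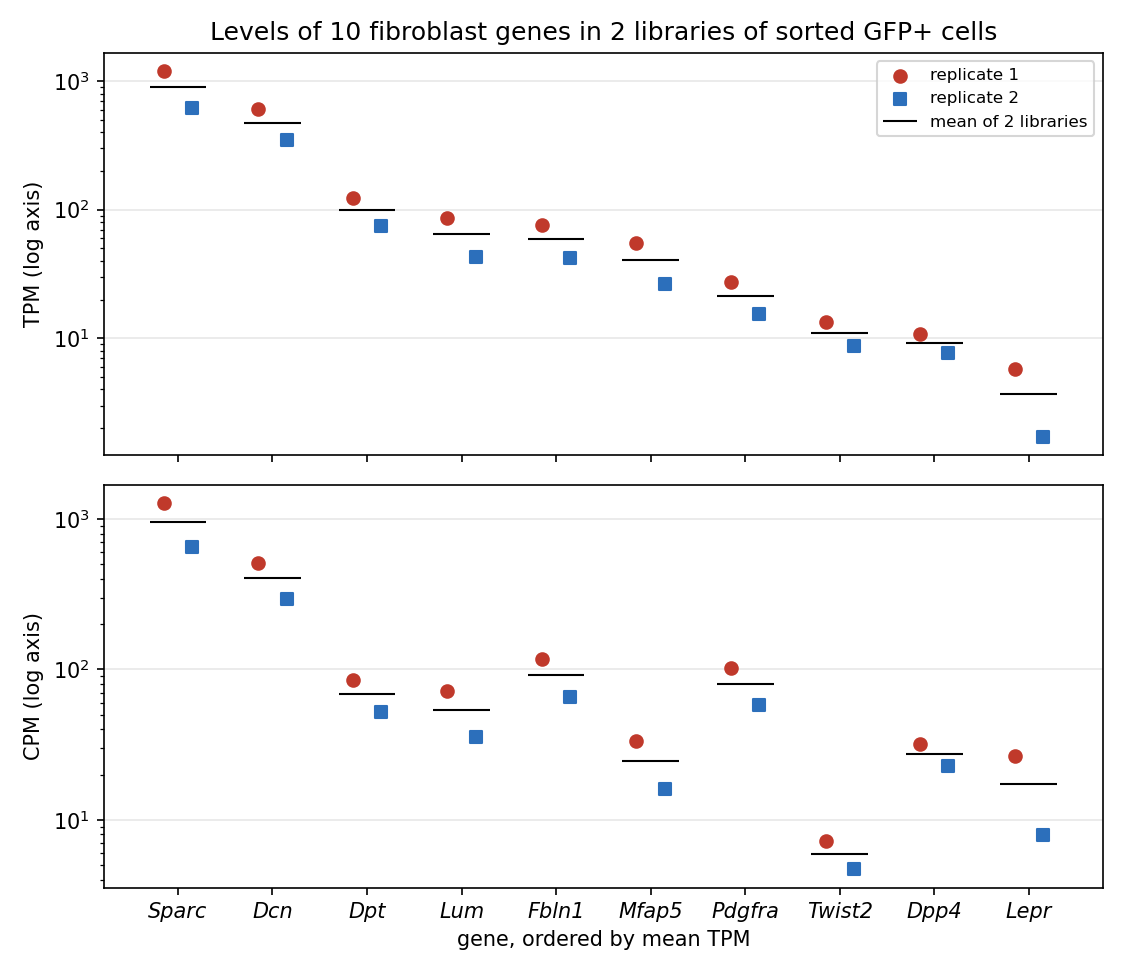
Level of each of the 10 genes in replicate 1 (circles) and replicate 2 (squares), as TPM in the upper panel and CPM in the lower one, on log axes, with the mean of the 2 libraries as a line. Sparc and Dcn stand highest in both panels, and replicate 1 is the higher library for each gene.

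Among the proteoglycans, decorin stood well above lumican. Dcn had 18860 counts in replicate 1 and 9843 in replicate 2, or 605 and 347 TPM, which put its mean at the 98.5 percentile of the 15833 genes detected at 1 CPM or more in both libraries. Lum, whose core protein carries keratan sulfate in some tissues, had 2629 counts in replicate 1 and 1196 in replicate 2, or 85.6 and 42.7 TPM. Within a library Dcn exceeded Lum 7.08-fold in replicate 1 and 8.12-fold in replicate 2 on the TPM scale. Both genes were higher in replicate 1, by 1.75-fold for Dcn (1.71 to 1.79) and 2.01-fold for Lum (1.87 to 2.15).

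The matrix proteins spanned the widest range of levels. Sparc, which encodes osteonectin, a collagen-binding protein secreted into the matrix, had 46593 counts in replicate 1 and 21852 in replicate 2, or 1191 and 613 TPM. It alone made up 56.2% of the counts of the 10 genes in replicate 1 and 54.0% in replicate 2. Dpt encodes dermatopontin, a dermal protein that binds decorin, and had 3103 counts in replicate 1 and 1737 in replicate 2, or 122 and 75.2 TPM. Fbln1, the gene of fibulin 1, had 4338 counts in replicate 1 and 2184 in replicate 2, or 75.9 and 41.9 TPM. Mfap5, whose product binds fibrillin microfibrils, had 1230 counts in replicate 1 and 538 in replicate 2, or 55.2 and 26.5 TPM. All 4 were higher in replicate 1, with the smallest ratio for Dpt at 1.63-fold (1.54 to 1.73) and the largest for Mfap5 at 2.09-fold (1.88 to 2.31).

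The cell-surface genes were less abundant per length and differed most in their ratios. Pdgfra, the receptor of PDGF-A and PDGF-C, had 3745 counts in replicate 1 and 1949 in replicate 2, or 27.2 and 15.6 TPM. Dpp4, the protease CD26 that marks subsets of dermal and fascial fibroblasts, had 1164 counts in replicate 1 and 759 in replicate 2, or 10.8 and 7.70 TPM. Lepr, the leptin receptor, had 975 counts in replicate 1 and 264 in replicate 2, or 5.74 and 1.70 TPM. Pdgfra differed by 1.75-fold (1.66 to 1.85), close to Dcn. Dpp4 had the smallest ratio of the 10 at 1.40-fold (1.28 to 1.54), and Lepr the largest at 3.37-fold (2.94 to 3.88).

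Twist2 was the scarcest by count, with 266 counts in replicate 1 and 157 in replicate 2, or 7.25 and 4.69 CPM. Its short transcript put it at 13.5 and 8.72 TPM, above Dpp4 and Lepr. The ratio was 1.55-fold, with an interval of 1.26 to 1.90 that reflects the low count.

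Annotated genes that overlap the 10 contributed few counts where the files list them. In GENCODE M21 (GRCm38) antisense genes overlap Dpt, Pdgfra, Dpp4 and Twist2. Gm32569, opposite Dpt, had 13 counts in replicate 1 and 9 in replicate 2, and Gm13561, opposite Dpp4, had none in either. Whether reads were counted by strand is not known here, so reads of a gene and its antisense partner cannot be told apart.

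Since no second condition was sampled, the remaining question was how the 10 genes differed between the libraries. By the exact two-sided binomial test of each gene's counts against the library totals, adjusted over all 23690 tested genes (Benjamini-Hochberg, threshold 0.05), all 10 were higher in replicate 1, beside 27.2% of all tested genes, with 16.9% lower. Among genes with a mean of 10 CPM or more the share called higher was 35.6%. Twist2 had the highest adjusted p of the exact test at 6.4e-05 and Dpp4 the next at 3.4e-12. The test compares these libraries and covers counting error, and the members had been chosen with such a difference of fibroblast genes already known. As a group they had a median log2 ratio (replicate 1 over replicate 2) of 0.83, or 1.78-fold, against 0.08 over all tested genes. Of the 10, 9 differed by 1.5-fold or more, which 20.4% of all tested genes did in this direction, and 6.55% of the 9920 with a mean of 10 CPM or more. Among those 9920 genes, 308 (3.10%) had a ratio at or above the median of the 10.

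Against the spread between libraries the differences did not pass. edgeR's exact test, with the dispersion shared by all tested genes (22.7% as a coefficient of variation), called 0 of the 10 genes at an adjusted p under 0.05. Unadjusted, 2 of the 10 (Mfap5 and Lepr) had a p under 0.05, as had 1702 of the 23690 tested genes. At the adjusted threshold the test called 0.19% of all tested genes higher and 0.0886% lower in replicate 1. Lepr had the lowest adjusted p of the 10 at 0.126 in edgeR. This dispersion is estimated from the same 2 libraries, so differences between them enlarge it.

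**Figure D2:**
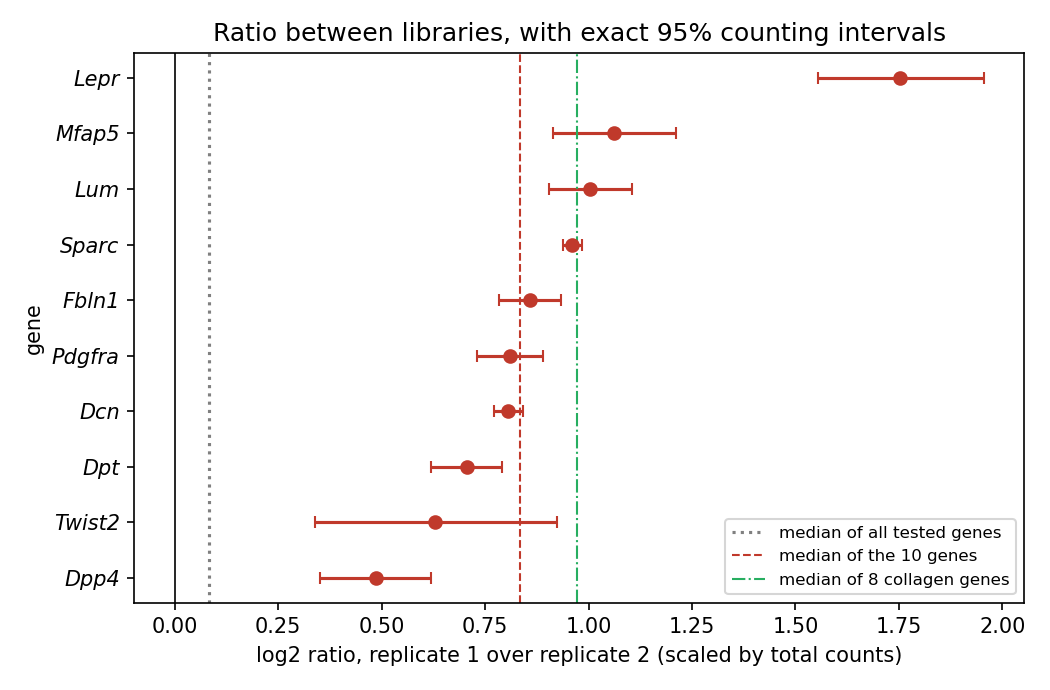
Log2 ratio of replicate 1 over replicate 2 for each gene (points) with exact 95% counting intervals (bars), and the medians of the 10 genes, of 8 collagen genes and of all tested genes as vertical lines. Dpp4 at 0.49 and Lepr at 1.75 lie at the ends, and the interval of each gene lies above the median of all tested genes at 0.08.

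Within counting error, the 10 genes did not share 1 ratio. Of the 45 pairs among them, 27 had counting intervals of the ratio that do not overlap. These intervals leave out the spread between libraries, and whether the ratios differ beyond that spread was not tested. The interval of Lepr lay apart from those of the other 9 genes, and that of Dpp4 from those of 8, Twist2 being the exception. On the log2 scale, Dpp4 at 0.49, Twist2 at 0.63 and Dpt at 0.71 were the lowest, Dcn and Pdgfra both stood at 0.81 and Fbln1 at 0.86, and Sparc at 0.96, Lum at 1.00 and Mfap5 at 1.06 followed. A set of 8 genes of fibrillar and associated collagens, Col1a1, Col1a2, Col3a1, Col5a1, Col5a2, Col6a1, Col6a2 and Col6a3, lay between 0.88 and 1.13 with a median of 0.97. Relative to that collagen median, Lepr was higher by 0.78, Dpp4 stood at -0.49 and Sparc at -0.01. As a result Lepr made up 1.18% of the counts of the 10 genes in replicate 1 and 0.652% in replicate 2, while Dpp4 made up 1.40% and 1.88%.

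**Figure D3:**
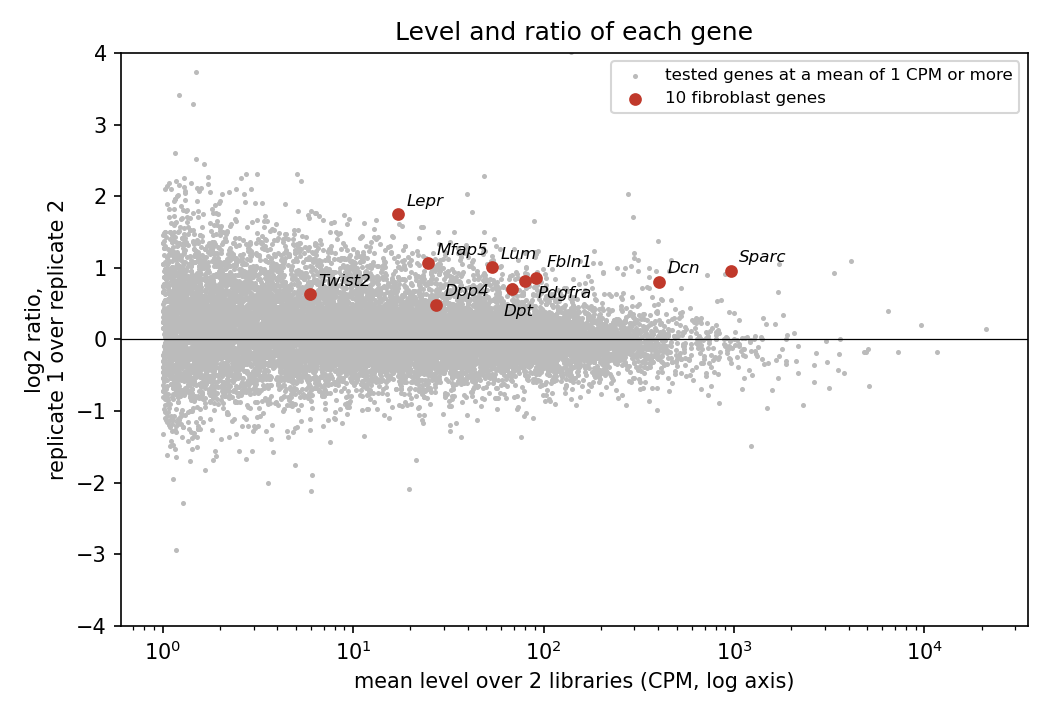
Mean level over the 2 libraries (CPM, log axis) against the log2 ratio of replicate 1 over replicate 2, for the tested genes at a mean of 1 CPM or more (grey, 16510 drawn and 13 outside the range or at 0 counts in a library) and the 10 fibroblast genes (red). The 10 genes lie above 0 at levels from 5.97 to 961 CPM.

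Relatives of the proteoglycans were mostly higher in replicate 1 too. Of 15 other small leucine-rich proteoglycan genes 14 were tested, of which 10 were higher, 1 lower and 3 not called by the binomial test, at a median of 0.59 on the log2 scale, and 9 were higher with TMM or DESeq2 scaling. Biglycan (Bgn) led at 176 ± 68.5 TPM and had a log2 ratio of 0.82, next to 0.81 for Dcn. Osteoglycin (Ogn) followed at 48.1 ± 23.6 TPM and 1.05, and asporin (Aspn) at 34.1 ± 21.2 TPM and 1.36. Fibromodulin (Fmod) went the other way, with 368 counts in replicate 1 and 495 in replicate 2, a log2 ratio of -0.56 that was no longer called when scaled to the basal keratinocyte list. Epyc had no count in either library, which with a floor of 3 counts leaves room for at most 0.0818 and 0.0896 CPM in replicates 1 and 2. Nyx was lowest of the others at 0.583 ± 0.0107 TPM.

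Families of the matrix proteins differed in how many of their genes were called. Of 13 other genes of microfibrils and elastic fibres, 12 were higher in replicate 1 (11 with TMM or DESeq2 scaling) and Emilin1 was not called, with a median log2 ratio of 0.62. Elastin (Eln) stood at 182 ± 51.5 TPM, the latent TGF-beta binding protein Ltbp4 at 113 ± 18.3 TPM, fibrillin 1 (Fbn1) at 112 ± 50.3 TPM and Emilin1 lowest at 6.31 ± 0.346 TPM. Of the 7 fibulin and hemicentin genes besides Fbln1, 5 were higher, with Hmcn1 at a log2 ratio of 1.24 and Fbln2, the most abundant at 65.2 ± 22.5 TPM, at 0.72. Efemp1 (45.6 ± 7.22 TPM) and Efemp2 stood at 0.33 each and Hmcn2 at 0.47. Fbln5 was lower at -0.27, though not when scaled to the basal list, and Fbln7 was not called at 0.08. The relatives of Sparc had the widest range of ratios of these families. Fstl1, at 184 ± 85.9 TPM, had a log2 ratio of 0.99, near the 0.96 of Sparc, while Smoc2 at 106 ± 3.56 TPM was not called at -0.07 and was lower with TMM. Of the rest, Smoc1 (1.70), Spock2 (1.00) and Sparcl1 (0.36) were higher, Spock1 was not called with 4 and 11 counts, and Spock3 had too few counts to be tested.

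Ligands and partners of the cell-surface genes had mixed ratios. Among PDGF genes the receptor Pdgfrb, also a mural gene, had a log2 ratio of 0.85 beside 0.81 for Pdgfra, at 13.2 ± 5.31 TPM. The ligand Pdgfa was not called at 0.06 with 15.3 ± 0.448 TPM, Pdgfb was lower in replicate 1 at -0.56 except when scaled to the basal list, and Pdgfc at 0.29 and Pdgfd at 0.65 were higher. In the Dpp4 family, Fap, the fibroblast activation protein, had a log2 ratio of 0.90 at 11.3 ± 4.82 TPM. The intracellular Dpp8 and Dpp9 stood at 0.11 each and were called higher, but with TMM or DESeq2 scaling the list held 1 higher and 1 lower gene in place of 3 and 0. Dpp7 (-0.07) and Dpp6 (0.04, with 9 and 8 counts) were not called, and Dpp10 was not tested. In the leptin system, Leprot, the gene just before Lepr on its chromosome, was not called at 0.05 with 2958 counts in replicate 1 and 2608 in replicate 2. Leprotl1 (0.07) was not called and Jak2 was higher at 0.35, while Stat3 (-0.09) and Socs3 (-0.26), a feedback inhibitor of cytokine signalling at 856 ± 110 TPM, were lower in replicate 1 by total counts and higher when scaled to the basal list. Leptin itself (Lep) had 11 counts in replicate 1 and 3 in replicate 2, a log2 ratio of 1.74 (interval -0.18 to 4.22) that was not called by total counts. Scaled to the basal list, all 6 genes of the leptin system besides Lepr were called higher in replicate 1.

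Other mesenchymal transcription factors split into separate ranges. Of 12 besides Twist2, 11 were tested, 7 were higher in replicate 1 and 4 were not called, with a median log2 ratio of 0.75. Twist1, the close relative of Twist2, had a log2 ratio of 0.75 at 7.01 ± 2.51 TPM, and Twist2 exceeded it 1.53-fold in replicate 1 and 1.67-fold in replicate 2 on the TPM scale. Prrx1 (0.68), Zeb1 (0.75), Tbx15 (0.76), Snai1 (0.97), Osr1 (1.03) and En1 (1.37), a factor of dorsal dermis, were also higher. The most abundant of the list, Zeb2 at 74.6 ± 0.571 TPM and Snai2 at 37.6 ± 1.15 TPM, were not called at 0.02 and -0.06 (Zeb2 was lower with TMM or DESeq2 scaling), nor were Osr2 (0.08) and Prrx2 (-0.25). Tcf21 had no count in either library.

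Lists of genes used as markers of dermal fibroblast subsets had lower median ratios than the 10 genes. The counts do not show which sorted cells made these RNAs, so the medians need not be those of fibroblasts. All 8 reticular and fascial genes were higher in replicate 1, but with a median log2 ratio of 0.41, and 6 were higher with TMM or DESeq2 scaling. Ly6a led at 502 ± 106 TPM and a log2 ratio of 0.44, Clec3b followed at 145 ± 13.1 TPM and 0.19, Sema3c at 87.8 ± 3.66 TPM and 0.09, and Dlk1 was lowest at 1.86 ± 0.987 TPM and 1.14. Pi16, a marker of fascial and adventitial fibroblasts that also carry Dpp4, stood at 0.39 beside 0.49 for Dpp4. Of all tested genes, 27.2% had a ratio at or above that of Pi16. The other members Cd34, Thy1 and Anxa3 stood at 0.74, 0.62 and 0.22. Of 6 papillary genes, several of which keratinocytes express as well, 3 were higher and 2 lower, with a list median of 0.07 that turned to -0.01 with TMM. Their highest member Apcdd1, at 64.2 ± 10.7 TPM, had a log2 ratio of -0.34, Axin2 -0.18 at 21.4 ± 1.94 TPM, Ntn1 0.69 at 11.1 ± 3.65 TPM and Crabp1, the lowest, -0.13 at 4.68 ± 0.308 TPM. Lef1 stood at 0.98 and Trps1 at 0.26. Apcdd1 and Axin2 were not lower when scaled to the basal list. Of 8 dermal papilla genes, none reached 10 CPM in both libraries and 3 of 7 tested were higher. Wif1 was their highest at 10.8 ± 5.20 TPM, followed by Alx4 at 2.34 ± 0.403 TPM and Sox18 at 1.79 ± 0.592 TPM, while Rspo2 had 2 and 7 counts.

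**Figure D4:**
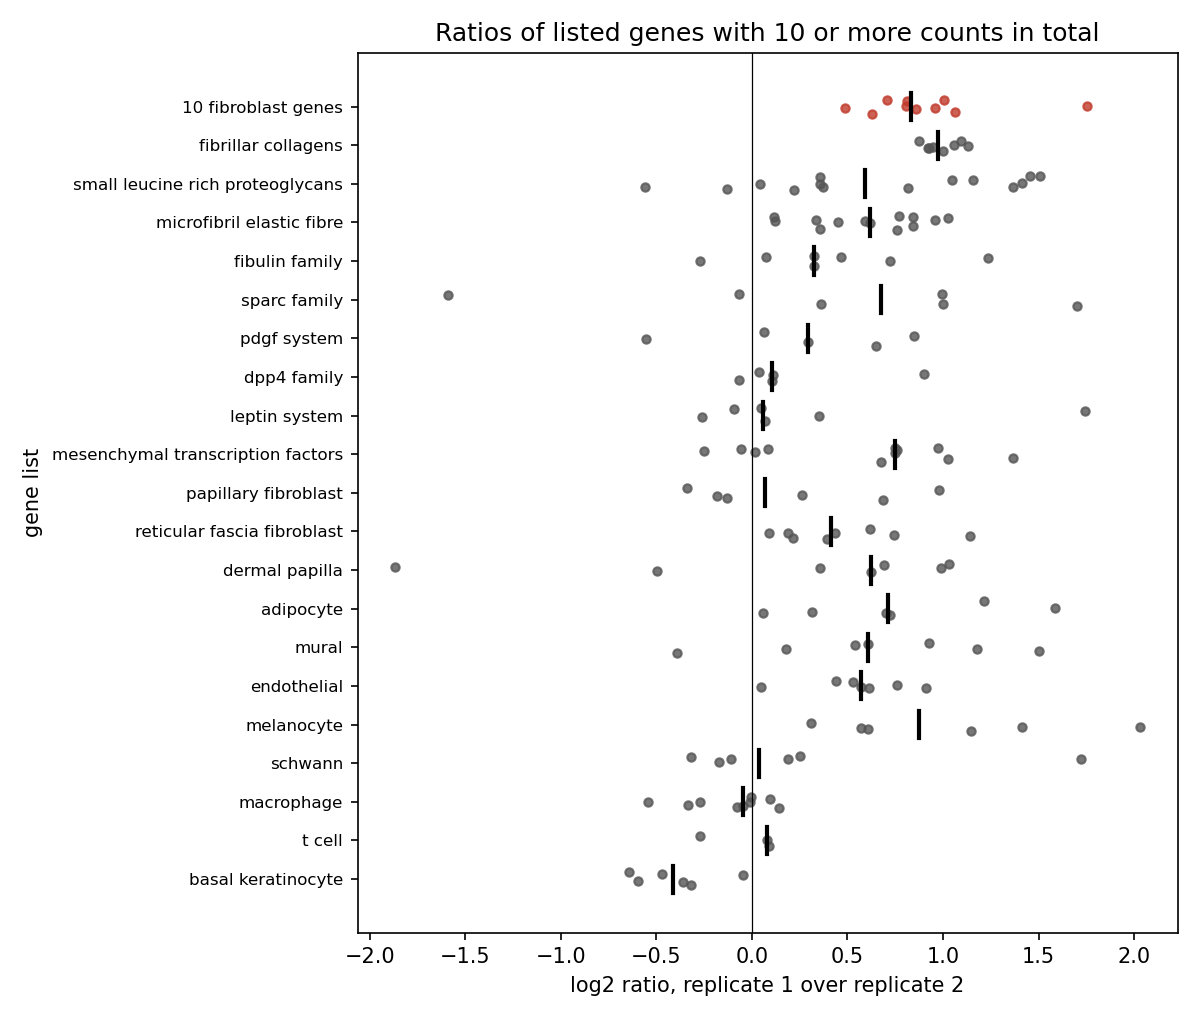
Log2 ratio of replicate 1 over replicate 2 for the 10 fibroblast genes (red) and the genes of 20 other lists (grey) with 10 or more counts in total; black bars mark list medians. The 10 genes lie wholly above 0, as do the collagen, microfibril and elastic fibre, reticular and fascial, adipocyte, endothelial and melanocyte lists, and the basal keratinocyte genes wholly below it when scaled by total counts.

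Marker genes of other cell types moved with the fibroblast genes in part. By the binomial test 5 of 7 mural genes, 5 of 7 endothelial genes, 5 of 6 melanocyte genes and 5 of 6 adipocyte genes were higher in replicate 1, at median log2 ratios of 0.61, 0.57, 0.88 and 0.71. Of 9 macrophage genes, 2 were higher and 5 lower at a median of -0.05, and Schwann cell genes had 0.04; scaled to the basal keratinocyte list these medians became 0.47 and 0.56. The 6 basal keratinocyte genes were all lower in replicate 1, Krt5 among them with 3997 and 6249 CPM in replicates 1 and 2; their median was -0.41, and 0.11 when scaled to their own sum. For 13 mitochondrial protein genes the median log2 ratio was 0.35, and 11 of them passed the binomial test on the side of replicate 1. The proliferation genes Mki67, with 151 and 99.5 CPM, and Top2a, with 133 and 70.7 CPM in replicates 1 and 2, were also more abundant in replicate 1. The part of these cell types, of mitochondrial RNA and of proliferation in the ratio of the 10 genes was not tested. Per length, the median of the 10 genes lay below that of the basal keratinocyte genes by 2.88 on the log2(TPM + 0.5) scale in replicate 1 and 4.09 in replicate 2, a mean difference of -3.48 ± 0.85 (SD, n = 2).

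With 2 libraries a gene's pattern is a single ratio, so likeness rests on 1 number. Among the genes of the other lists at a mean of 10 CPM or more, those closest to the median of the 10 were the collagen cross-linking enzymes Lox and Loxl1, both at a log2 ratio of 0.84, Pdgfrb at 0.85, Bgn at 0.82 and Col5a1 at 0.88.

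The direction held under other scalings, and its size moved with them. With TMM factors 5069 of the 23690 tested genes were called higher and 5374 lower in replicate 1, and the rest were not called. With DESeq2 size factors the called genes were 4977 and 5494, against 6443 and 3993 by total counts. Scaled to the basal keratinocyte list, the median over all tested genes shifted to 0.60, with 16191 called higher and 459 lower. A scaling shifts every log2 ratio by the same amount, so the distance of 0.75 between the median of the 10 and that of all tested genes is fixed and no test of the direction. All 10 genes were called higher in replicate 1 under each scaling.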

How the data were processed

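Total RNA from sorted cells was depleted of ribosomal RNA and sequenced in pairs of 150 bases, per the labels' protocols. The deposited files give raw counts per gene and a gene length, which the authors made with featureCounts and build mm39 (per the submitters' processing notes). Sources used here do not give the aligner, the annotation release or the strand setting. Both samples form 1 group, numbered as in the labels, and no gene name was missing. CPM used the total of all counts (36692204 and 33489967) and TPM the deposited length. Genes with 10 or more counts in total were compared by an exact two-sided binomial test (scipy 1.17.1, Benjamini-Hochberg, 0.05), and with edgeR 4.0.16's exact test as an alternative, with the common dispersion of an intercept-only design. Intervals are exact (Clopper-Pearson). Both tests were checked on simulated data with known changes, and both recovered them where counts held sampling noise alone. With added spread between libraries, the binomial test also called many unchanged genes and edgeR missed most changed ones. That spread was set below the 22.7% that edgeR estimated from these libraries. DESeq2 1.42.0 gave alternative size factors. The members and lists were chosen with earlier results of these data known. Named are all members and, per list, the 3 highest and the lowest by mean TPM, members without counts, and all members of small lists described, while lists of other cell types are given by counts and sums; genes named beyond these were chosen after their values were seen. Promoter windows came from RefSeq (GRCm38.p6).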

Additional observations from a re-analysis of the deposited data

How the results depend on the processing

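All 10 genes were called higher in replicate 1 with TMM factors, DESeq2 size factors, scaling to the basal keratinocyte list, no filter on low counts, and a filter of 1 CPM in both libraries. With edgeR's exact test 0 of 10 were called, since that test adds the spread between the libraries. Their median log2 ratio of 0.83 was 0.76 with TMM, 0.75 with DESeq2 and 1.35 with scaling to the basal list, shifts that the scaling itself makes. The median difference from the basal keratinocyte genes was -4.42 in CPM, which is not scaled by length, against -3.48 in TPM, and ranged from -4.09 to -2.88 when either library was left out. The summed share of counts ranged from 0.121% to 0.226%, and 8 to 9 genes reached 10 CPM, when either library was left out. None of the 30 single-gene ratios under another scaling turned a direction or ended a call. No paired analysis was possible because the series holds 1 group. With 2 libraries, no difference between them has a replicate check, and Twist2 rests on the fewest counts.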

Other observations

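The genes next to the 10 on their chromosomes, by RefSeq on GRCm38.p6, had ratios both near 0 and near theirs. Dcn and Lum are neighbours, followed by Kera and Epyc of the same proteoglycan family, of which Kera had 28 counts in replicate 1 and 9 in replicate 2 and Epyc none. On the other side of Dcn, Btg1 stood at a log2 ratio of 0.04 with 406 CPM in replicate 1 and 394 CPM in replicate 2. The genes flanking Sparc, Fat2 and Atox1, stood at -0.25 and -0.33, and Atxn10 next to Fbln1 at 0.02. Leprot before Lepr stood at 0.05 and Hdac4 after Twist2 at 0.16. Several genes within 2 places had ratios as high as those of the 10. Kit, next to Pdgfra, stood at 0.83 with 166 counts in replicate 1 and 85 in replicate 2, and Kera at 1.51. Fap near Dpp4 stood at 0.90, and Dnajc6 near Lepr at 0.89 with 431 counts in replicate 1 and 213 in replicate 2. At lower counts, Smc1b near Fbln1 stood at 0.66, with 33 counts in replicate 1 and 19 in replicate 2, and Tbr1 near Dpp4 at 3.14, with 29 and 3. These genes were chosen for their place, after the values of the 10 were seen, and the ratios were not tested as a group.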
